A study of Populus trichocarpa with 24 samples.

Results

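Leaf and primary root of black cottonwood (Populus trichocarpa) were compared across all loci of the deposited count table. The comparison used the 3 leaf and 3 primary root libraries, 6 of the 24 libraries of the series, chosen by the tissue named in their titles. The leaf samples were fully expanded young leaves of trees grown for 6 months in a greenhouse, in potting soil under long days. The primary root samples came from young seedlings that had been rooted in water, although the age field gives 6 months for them as well. Tissue, plant age and rooting medium therefore change together and cannot be told apart. No genotype, transgene or treatment was named for either tissue, and the RNA of both was total RNA that had not been amplified. Nothing in the labels ties a replicate to a separate plant, so p-values measure the spread between these samples, which may be technical. The other groups of the series, of 3 libraries each, were shoot tip, phloem, developing stem xylem and 3 kinds of laser-captured wood cells. Shoot tip, phloem and xylem were used to estimate the spread and to show where leaf-high and root-high loci stood outside leaf and root.

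A leaf captures light in its chloroplasts and fixes carbon, and a few very abundant transcripts for the photosynthetic apparatus commonly dominate its RNA. A primary root takes up water and mineral nutrients through its epidermis, admits them across an endodermis to the central vascular tissue, and grows from a meristem under a cap. Both organs hold xylem and phloem, and both form lignified cell walls in their vessels. The table lists loci by identifier only. None of its identifiers could be joined to an annotation, so leaf or root markers could not be checked against the tissue labels, and no gene names, products or sequences are given. In whole organs, a lower level may reflect fewer cells of a type or less RNA per cell, and these cannot be told apart.

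Library totals were 13023568, 30917688 and 16393363 counts in leaf replicates 1, 2 and 3, against 5689642, 6182471 and 11373245 counts in the root replicates. Every leaf library was thus deeper than every root library. The number of loci with at least 1 count was nevertheless similar, between 31849 and 33755 in leaf and between 32381 and 33884 in root. The Pearson correlation of log2 CPM (counts divided by the library total, scaled by the TMM method) across loci was 0.961 to 0.970 within leaf, 0.971 to 0.983 within root and 0.481 to 0.512 between the tissues; loci are not independent replicates. Replicates of a tissue nevertheless differed by more than sampling noise, and none was merged. The biological coefficient of variation, the spread between replicates beyond counting error, was 30.5% for the leaf libraries alone and 19.5% for the root libraries alone. Root replicate 3 had 229 loci more than 4-fold above both other root libraries, against 7 and 16 such loci in root replicates 1 and 2; the corresponding numbers in leaf were 98, 142 and 30.

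A property of the table has to be stated before the results. In some places, long series of consecutive identifiers shared nearly the same count within each library. The longest unbroken run of loci higher in leaf held 61 loci of the chromosome 13 identifier series. Over these loci the raw counts between the quartiles lay between 188 and 357 in leaf replicate 1, 578 and 891 in leaf replicate 2, and 141 and 290 in leaf replicate 3, against 2 and 11, 1 and 10, and 3 and 22 in root replicates 1, 2 and 3. In shoot tip replicate 1 the quartiles of the same loci were 2067 and 2110 counts. A run of 36 loci of the chromosome 19 series had lowest counts of 173, 731 and 438 in the leaf libraries and of 8, 4 and 6 in the root libraries, and many of its loci stood at or near these minima. Windows of 10 consecutive loci in which 50% or more were within 10% of the lowest count, with that lowest count at 30 or more over the tissue's libraries, took in 467 loci by their leaf counts and 43 by their root counts, 510 in all in 27 stretches. Of these, 476 were tested, 341 were called higher in leaf and 34 lower, against 26.3% and 25.0% of all loci tested. Together they made 2.34% of all calls, but the rule did not take in every case of shared counts. It asked for a minimum count within a tissue, and most loci entered by counts in the deeper leaf libraries. The direction of their calls thus depends on the rule and describes the stretches without testing them. Of 23716 pairs of tested neighbours, 1866 (7.87%) were near-equal in leaf or root counts, 1039 in leaf counts and 926 in root counts. The 7.87% covers either tissue and is not the background of the single-tissue shares that follow. Of 2545 pairs both higher in leaf, 309 (12.1%) were near-equal in leaf counts. Of 2112 pairs both lower, 120 (5.68%) were near-equal in root counts. Between adjacent identifiers, 162 pairs had identical counts in all 6 libraries. The values of such loci are not independent measurements of separate genes. The sources used here do not give the tool that assigned reads to loci, and the cause of the shared counts was not tested. With the stretches left out, an alternative chosen after seeing the data, 7975 loci were higher and 7712 lower in leaf, and 97.2% of the calls described next were kept. The 2.34% of calls in the stretches could not be kept there, and shared counts outside the stretches stayed in.

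**Figure D1:**
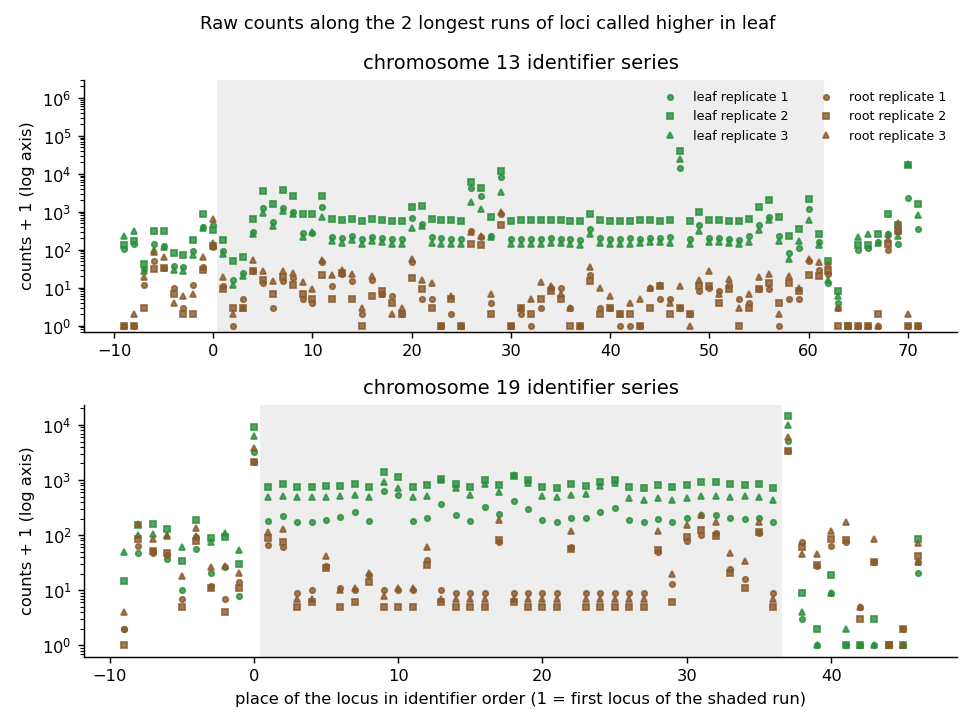
Raw counts plus 1, on a log axis, of each locus in identifier order along the 61-locus run of the chromosome 13 series (top) and the 36-locus run of the chromosome 19 series (bottom), shaded, with the loci on either side; green symbols are the 3 leaf libraries and brown symbols the 3 root libraries. Over part of each shaded run the leaf counts form near-level lines at a height of their own in each library, with 48 of the 61 and 25 of the 36 loci in stretches of near-equal counts; the other loci of the runs scatter, in leaf replicate 1 from 15 to 14163 counts along the upper run.

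Leaf and root differed at about every second measured locus, in nearly equal numbers in each direction. Of 31308 loci that passed the filter on low counts, 16047 (51.3%) were called, with a Benjamini-Hochberg adjusted p below 0.05 in edgeR's quasi-likelihood test and an at least 2-fold difference. In leaf 8230 loci (26.3%) were higher and 7817 (25.0%) lower than in root. The median log2 fold of leaf over root was 2.58 among the higher loci and -2.41 among the lower ones, and 0.01 over all loci tested. The median standard error was 0.32 over all loci and 0.40 over the called ones. At least 4-fold differences numbered 5160 higher and 4705 lower, at least 16-fold differences 2559 and 2212, and at least 64-fold differences 1377 and 1207. A difference of at least 256-fold was estimated for 716 loci higher and 601 lower in leaf. For loci with no or few counts in a tissue the fitted fold depends on the prior count. The numbers of the largest differences are therefore not lower bounds on the true differences. Leaving the size of the difference aside, 20633 loci (65.9%) passed the adjusted p threshold, 10570 of them higher in leaf.

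The 3 leaf and 3 root values did not overlap at 15755 of the called loci and overlapped at 292; over all tested loci they did not overlap at 22622 (72.3%). Of the 15261 loci not called, 6785 had a 95% interval of the log2 fold that lay wholly between -1 and 1, so that a 2-fold difference lay outside it. For the other 8476 the interval reached past 2-fold, and whether they differ by that much was not detectable at this replication. In all, 4456 loci of the table's 41335 had no count in any of the 6 libraries.

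The split between higher and lower rests on the scaling. TMM factors, which correct library totals for composition, were 0.645, 0.701 and 0.741 in leaf, against 1.36, 1.39 and 1.31 in root. With unscaled totals the median log2 fold over all loci moved to -0.95, and 4987 loci were called higher and 14693 lower in leaf, so that 25.3% of calls were higher, against 51.3% with scaling. Directions below are relative to the scaled median.

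**Figure D2:**
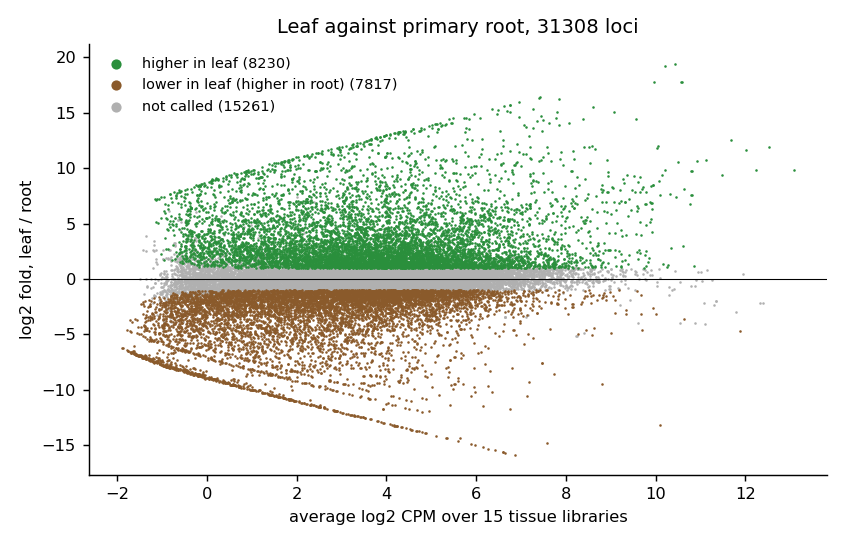
Log2 fold of leaf over root (vertical axis) against the average log2 CPM over the 15 tissue libraries (horizontal axis) for the 31308 loci tested, with 8230 loci higher in leaf in green, 7817 lower in brown and 15261 not called in grey. Points extend further up than down at the right, among the most abundant loci; the curved edges are loci with no or few counts in one of the tissues, whose fitted folds depend on the prior count.

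The direction of the calls changed with the average abundance over the 15 tissue libraries. Among loci with an average log2 CPM below 0 over the tissue libraries, 14.4% were higher and 46.9% lower in leaf. Between 2 and 4 the shares were 26.3% and 24.9%. Above 6 they were 39.0% and 10.4%. With TMM scaling, root-high calls thus outnumbered leaf-high calls among the loci sparsest on this average, and leaf-high calls outnumbered root-high calls among the most abundant. The average includes leaf and root themselves and also shoot tip, phloem and xylem. A locus detected in root alone therefore falls in a sparser class than its level in root, and the classes do not rank loci by leaf or root level. The median standard error of the log2 fold was 0.78 in the sparsest class and 0.24 in the most abundant one.

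Leaf libraries were far more concentrated on few loci. The 10 most abundant loci of each library took 12.2, 11.5 and 11.1% of the counts in leaf replicates 1, 2 and 3, against 5.23, 3.78 and 3.82% in the root replicates. The top 100 took 31.4, 30.8 and 28.2% in leaf, against 14.2, 12.1 and 11.9% in root, and the top 1000 took 59.0, 56.9 and 55.5% in leaf, against 36.1, 34.0 and 34.2% in root. The tissues did not overlap at any of these ranks. The difference in the top-100 share was 17.4 percentage points, and the two-sided exact permutation test gave p = 0.1 at each rank, the smallest that 3 against 3 libraries allow. These shares are of raw counts, not per transcript length, and they do not depend on the scaling.

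**Figure D3:**
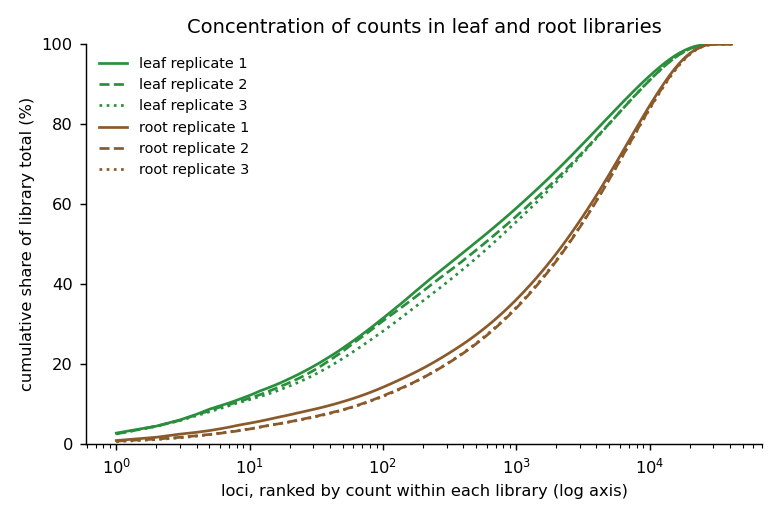
Cumulative share of the library total (vertical axis, %) held by loci ranked by count within each library (horizontal axis, log scale), with green lines for the 3 leaf and brown lines for the 3 root libraries. At 100 loci the leaf lines lie between 28.2 and 31.4% and the root lines between 11.9 and 14.2%.

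The loci at the top of the leaf libraries were nearly all leaf-high, whereas many at the top of root were not called between the tissues. The 10 loci with the highest mean in leaf held 11.5 ± 0.52% of leaf counts, against 0.027 ± 0.0055% of root counts (SD, n = 3 each), and all 10 were called higher in leaf. They held 1.46 ± 0.25% of the counts in shoot tip, 0.239 ± 0.12% in phloem and 0.0973 ± 0.041% in xylem. The 10 loci with the highest mean in root held 0.914 ± 0.22% of leaf counts, against 4.14 ± 0.88% of root counts, and 2 were called lower in leaf and none higher. They held 0.846 ± 0.073% of the counts in shoot tip and 0.764 ± 0.044% in xylem, and 2.06, 1.75 and 13.01% in phloem replicates 1, 2 and 3. Phloem replicate 3 was thus above every root library, and the other phloem libraries were below every root library. Of the top 100 loci of leaf, 95 were called higher in leaf and 5 were not called. Of the top 100 loci of root, 9 were called higher in leaf, 47 lower and 44 were not called. The lists shared 11 loci. Since they were ranked on the same counts, these calls describe the lists and do not test them. The shares are of raw counts, whereas the calls rest on TMM scaling and on a spread that includes the phloem libraries. A locus that was not called is not shown to be equal in leaf and root.

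The weight of the called loci in the libraries was as unequal. The 8230 leaf-high loci made up 68.8 ± 1.3% of leaf counts, against 11.9 ± 0.27% of root counts (SD, n = 3 each). The 7817 root-high loci made up 3.41 ± 0.11% of leaf counts, against 33.8 ± 0.53% of root counts. Loci not called held 27.8 ± 1.4% of the counts in leaf, against 54.1 ± 0.80% in root. Similar numbers of loci in each direction thus went with a large difference in the share of counts they held; the loci were chosen by the same counts, so no test is attached.

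For 4 loci the difference was extreme. They have the 2 largest fitted folds in each direction, out of 2609 loci higher and 1218 lower in leaf that were called, averaged at least 50 CPM in the higher tissue and did not overlap between libraries. Potri.009G129900 was at 9863, 5912 and 4647 CPM in the leaf libraries and had no count in any root library. It held 96.7 ± 78 CPM in shoot tip, where the libraries ranged from 31.9 to 184 CPM, and 9.92 ± 3.3 CPM in phloem and 10.4 ± 5.2 CPM in xylem. Potri.001G348900 was at 5813, 7412 and 4418 CPM in leaf and likewise had no count in root. Its shoot tip libraries held 26.4, 10.5 and 0.940 CPM, its phloem libraries averaged 12.2 CPM, and its xylem libraries ranged from 8.24 to 15.5 CPM. Both loci were thus high in every leaf library and low but present in the stem tissues. Set against 3 counts over the 3 root libraries, the level in leaf was at least 70882-fold higher for Potri.009G129900 and at least 61235-fold higher for Potri.001G348900. Their adjusted p was 5.9e-08 and 5.0e-07 in edgeR's quasi-likelihood test with Benjamini-Hochberg adjustment.

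The 2 root-high loci were all but absent from the other tissues as well. Potri.006G089800 had no count in any leaf library and 553, 539 and 662 CPM in the root libraries. In shoot tip, phloem and xylem it had 1, 4 and 4 counts over the 3 libraries of each tissue. Potri.001G176000 had no count in leaf and 533, 478 and 493 CPM in root, and its only count in the other tissues was 1 in xylem. With 3 counts over the 3 leaf libraries, leaf was at least 8218-fold lower for Potri.006G089800 and at least 7047-fold lower for Potri.001G176000, with adjusted p of 2.3e-09 and 2.6e-08 in the same test. These bounds cover counting error only. CPM is not corrected for transcript length, so levels of different loci are not compared.

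Loci present in one tissue and all but absent from the other were counted by a fixed rule, at least 1 CPM in every library of one tissue and at most 3 counts over all libraries of the other. By this rule 777 loci were detected on the leaf side, 416 of them with no count in root, and 912 on the root side, 478 of them with no count in leaf. Loci with shared counts were not left out, here or in the shares that follow, so these are not counts of separate genes. The limit of 3 counts amounts to 0.0960 CPM over the root libraries and 0.0711 CPM over the leaf libraries, so absence is bounded a little more tightly in the deeper leaf libraries. Median levels in the tissue of detection were 10.7 CPM for the leaf-sided loci and 5.77 CPM for the root-sided ones. A mean of at least 50 CPM was reached by 170 leaf-sided and 83 root-sided loci.

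The leaf-sided and root-sided loci differed in where else they were found. Of the 777 leaf-sided loci, 519 (66.8%) were also at 1 CPM or more in every shoot tip library, 129 (16.6%) in every phloem library and 84 (10.8%) in every xylem library. Of the 912 root-sided loci, 16 (1.75%) reached that level in shoot tip, 53 (5.81%) in phloem and 53 (5.81%) in xylem. At most 3 counts in each of shoot tip, phloem and xylem were seen for 38 leaf-sided loci and 448 root-sided loci. Shoot tip was sampled over the uppermost internodes, and root was the only tissue taken from outside the shoot. Whether the sampling bears on these shares was not tested.

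The same contrast held over all called loci. For leaf-high loci the median log2 CPM was 4.53 in leaf, 3.63 in shoot tip, 2.63 in phloem, 2.06 in xylem and 1.62 in root. For root-high loci it was 0.56 in leaf, 1.09 in shoot tip, 1.31 in phloem, 1.47 in xylem and 3.54 in root. The shoot tip level was nearer leaf than root for 5383 leaf-high loci (65.4%), while phloem was nearer leaf for 38.3% and xylem for 30.1%. Of the root-high loci, 19.7% were nearer root than leaf in shoot tip, 30.4% in phloem and 36.2% in xylem. Shoot tip thus took the leaf side of the comparison for most loci of both kinds, and phloem and xylem took the lower side for most loci of both kinds.

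Leaf was the tissue with the highest mean for 5072 of the leaf-high loci (61.6%). The others peaked in shoot tip (1347, 16.4%), phloem (1131, 13.7%) or xylem (680, 8.26%). Root was highest for 5693 of the root-high loci (72.8%), and the others peaked in xylem (1089, 13.9%), phloem (827, 10.6%) or shoot tip (208, 2.66%). Many loci that separate leaf from root were therefore not at their maximum in either organ. The levels in leaf and root chose the loci, the other 3 tissues share 1 fit and scaling with them, and these shares are given with no test.

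**Figure D4:**
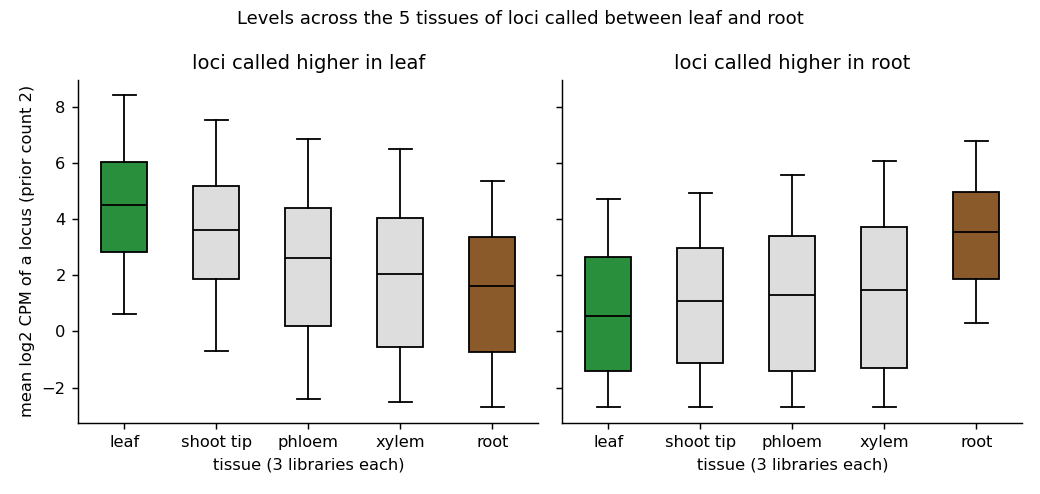
Mean log2 CPM per tissue (vertical axis; 3 libraries each) of the 8230 loci called higher in leaf (left) and the 7817 called higher in root (right); boxes span the quartiles with the median as a line, and whiskers reach the 5th and 95th percentiles. The medians of the leaf-high loci step down through shoot tip, phloem and xylem to root, whereas those of the root-high loci stay between 0.56 and 1.47 in all tissues other than root.

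Called loci lay next to each other in identifier order more often than their share of all loci. Outside the stretches of shared counts, 37.2% of the tested neighbours of leaf-high loci were leaf-high themselves, against 26.3% of all tested loci, and 36.9% of the tested neighbours of root-high loci were root-high, against 25.0%. Of 23230 such pairs of neighbours, 2253 were both higher in leaf, 2096 both lower and 2149 in opposite directions. Pairs with near-equal counts were still found among them. Over all tested loci, with every near-equal pair left out, the shares were 37.7% and 36.7%. Neighbours may include tandem copies, whose reads the counting could have divided, and their part in these shares was not tested.

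Runs of at least 5 consecutive loci with the same call numbered 61 for leaf-high and 70 for root-high loci outside the stretches. The longest leaf-high run outside them held 27 loci of the chromosome 17 series, with summed levels of 5848, 3910 and 4580 CPM in leaf, against 228, 224 and 340 CPM in root. In shoot tip, phloem and xylem the sum averaged 1192, 344 and 94.0 CPM. Over the members the median of the tissue means was 61.6 CPM in leaf and 0.393 CPM in root. The 2 members highest in leaf, which were not next to each other, stood at 1339 and 1318 CPM in leaf, against 39.5 and 39.8 CPM in root. Their counts were close, 53283 and 52442 over the leaf libraries and 1345 and 1358 over the root libraries. Further members had leaf counts of 1915, 1942 and 2052, so this run also holds shared counts outside the rule for stretches. A run of 18 loci of the chromosome 16 series did so too, with leaf counts such as 699, 708 and 711. A run of 12 loci of the chromosome 10 series summed to 8952, 2287 and 2802 CPM in leaf, against 258, 293 and 347 CPM in root, and 6.41 CPM in phloem. Leaf replicate 1 stood well above the other leaf libraries there.

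The longest root-high run outside the stretches held 25 loci of the chromosome 1 series. It summed to 41.5, 49.2 and 28.4 CPM in leaf, against 361, 372 and 336 CPM in root, and to 33.2, 95.3 and 82.9 CPM in shoot tip, phloem and xylem. Log2 folds in the run lay between -6.38 and -1.06. Some neighbours in it carried equal counts. A run of 14 loci of the chromosome 13 series summed to 28.3, 27.4 and 24.8 CPM in leaf, against 129, 159 and 125 CPM in root. The sum averaged 94.9, 106 and 327 CPM in shoot tip, phloem and xylem. The xylem sum exceeded that of root through 1 locus at 272 CPM in xylem, the only member higher in xylem than in root. Most of the root sum came from 3 loci, with means of 45.7, 45.6 and 21.8 CPM in root. The other 11 had no count in leaf, shoot tip, phloem or xylem. Their counts in root were close, between 51 and 72 over the 3 libraries, another case of shared counts that the rule for stretches did not take in.

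Leaf-high and root-high loci were found on all 19 chromosome series. The share of tested loci higher in leaf ran from 23.0% in the chromosome 7 series to 34.0% in the chromosome 19 series, with 32.6% in the chromosome 13 series. Outside the stretches of shared counts the values for series 19 and 13 were 30.2% and 29.3%. The share lower in leaf ran from 20.2% to 28.4%. Among the 1202 tested loci whose identifiers place them on no chromosome (series T), 22.1% were higher and 36.9% lower in leaf. Placement is read from the identifiers only.

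Wood formation was followed in leaf and root through 5 lists of 55 identifiers, recalled from published poplar nomenclature and not checked against an annotation. They were used because both organs contain xylem. They are described as groups of loci, since the assignment of a locus to a list was not checked, and no product is given for a single member. All 55 passed the filter, and none lay in a stretch of shared counts.

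Monolignols are the building blocks of lignin, the polymer that stiffens and waterproofs the walls of vessels and fibers. Of the 22 loci listed for their synthesis, 1 was called higher in leaf, 11 were called lower and 10 were not called, against 26.3% and 25.0% of all loci. The median log2 fold of the list was -0.97, against 0.01 over all loci, and 18 members had a negative value. The 2 largest differences were in loci at 15.4, 12.1 and 11.7 CPM in leaf, against 281, 284 and 366 CPM in root, and at 6.56, 4.62 and 5.61 CPM in leaf, against 127, 125 and 114 CPM in root. Their log2 folds were -4.57 ± 0.23 and -4.45 ± 0.22 (SE), with adjusted p of 7.5e-10 and 7.1e-10 in edgeR's quasi-likelihood test with Benjamini-Hochberg adjustment. In xylem they averaged 1330 ± 44 and 1807 ± 167 CPM (SD, n = 3).

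The member higher in leaf went the other way by a wide margin. It stood at 3186, 5267 and 3869 CPM in leaf, against 458, 475 and 653 CPM in root, with a log2 fold of 2.96 ± 0.42 (SE) and an adjusted p of 2.7e-05 in the same test. It averaged 1746 CPM in shoot tip, 219 CPM in phloem and 1263 CPM in xylem, so leaf was its highest tissue. This locus alone supplied 56.4% of the summed CPM of the list in leaf, against 8.61% in root. Because of it the summed level of the list was 6906, 7962 and 6802 CPM in leaf, against 6104, 6107 and 6193 CPM in root, while the median and the mean log2 fold (-1.17) of its members were negative. Without that locus the sum was 3116 ± 536 CPM in leaf, against 5606 ± 58 CPM in root (SD, n = 3 each). With unscaled totals the order of the full sums turned, to 5019 ± 563 CPM in leaf against 8302 ± 185 CPM in root. Xylem exceeded both organs, with 32573 ± 2155 CPM.

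**Figure D5:**
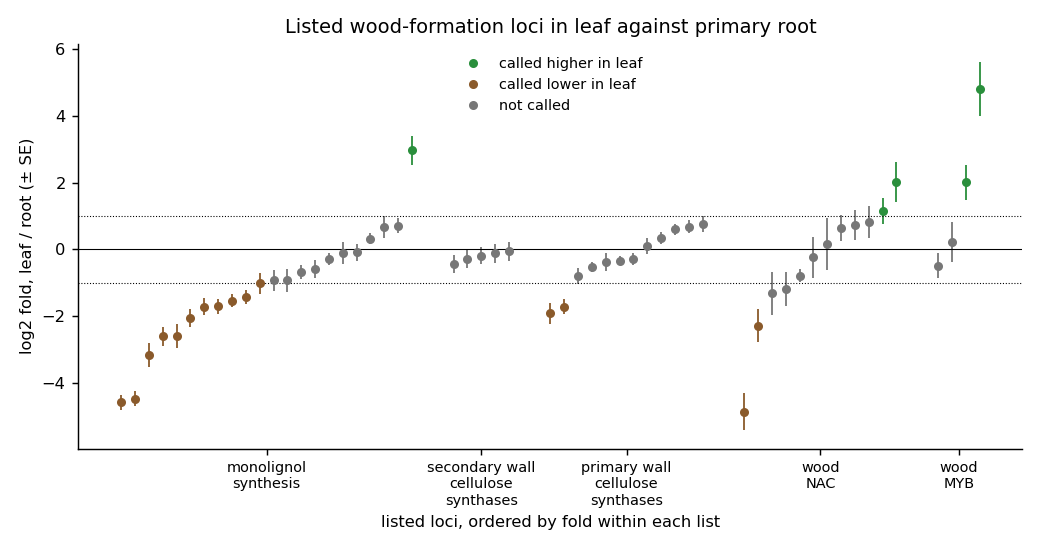
Log2 fold of leaf over root with its standard error (vertical axis) for the 55 listed loci, ordered within each list, with members called higher in leaf in green, called lower in brown and not called in grey; dotted lines mark 2-fold. Of the 22 monolignol loci 11 are brown and 1 is green at 2.96, and the 5 secondary wall cellulose synthase loci lie between -0.43 and -0.06.

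Cellulose synthases spin cellulose into the wall, with separate sets for the primary wall of growing cells and the secondary wall of wood cells. None of the 5 loci listed for the secondary wall was called, against 51.3% of all loci. They summed to 148, 90.3 and 133 CPM in leaf, against 130, 149 and 161 CPM in root, and the libraries overlapped at every member, whereas 72.3% of all tested loci did not overlap. Median log2 fold was -0.18, and for 4 of the 5 the 95% interval lay within 2-fold in either direction. In xylem their sum averaged 9038 ± 1650 CPM (SD, n = 3). With unscaled totals all 5 were called lower in leaf, against 14693 of the 31308 loci tested. The median log2 fold of the list was then -1.15, which is -0.20 relative to the shifted median of all loci.

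Of the 12 loci listed as primary wall cellulose synthases, none was called higher in leaf, 2 (16.7%) were called lower and 10 were not called, against 26.3% and 25.0% of all loci. One of the lower members was at 66.9, 49.2 and 56.8 CPM in leaf, against 179, 179 and 290 CPM in root, with a log2 fold of -1.91 ± 0.31 (SE). The other was at 40.6, 27.8 and 36.8 CPM in leaf, against 95.8, 101 and 145 CPM in root, with a log2 fold of -1.71 ± 0.23. Their adjusted p was 7.9e-05 and 1.5e-05 in edgeR's quasi-likelihood test with Benjamini-Hochberg adjustment. Xylem averaged 52.2 and 25.8 CPM for these loci, so both were higher in root than in xylem. The list as a whole summed to 1519 ± 89 CPM in leaf, against 1678 ± 334 CPM in root (SD, n = 3 each), with overlapping libraries and a median log2 fold of -0.31, and 7 members had a 95% interval within 2-fold.

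NAC and MYB transcription factors switch on secondary wall formation in wood. The 12 listed NAC loci were sparse in both organs, summing to 26.0, 14.8 and 21.2 CPM in leaf, against 32.1, 29.1 and 31.1 CPM in root, and to 469 ± 45 CPM in xylem. In xylem 2 members averaged only 0.270 and 0.322 CPM, below both organs. These members averaged 0.866 and 0.752 CPM in leaf and 2.13 and 0.691 CPM in root, and their place in the list was not checked. Of the 12 NAC loci, 2 (16.7%) were called higher, 2 (16.7%) lower and 8 were not called, against 26.3% higher and 25.0% lower of all loci. Their median log2 fold was -0.04 and their mean -0.42. The strongest was at 0.358, 0.139 and 0.165 CPM in leaf, against 6.33, 4.89 and 6.37 CPM in root, a log2 fold of -4.85 ± 0.55 (SE; adjusted p = 3.0e-06 in edgeR's quasi-likelihood test). Another lower member was at 2.74, 1.20 and 0.659 CPM in leaf, against 7.37, 7.80 and 5.90 CPM in root (log2 fold -2.28 ± 0.49). The 2 higher members, at 2.02 ± 0.60 and 1.15 ± 0.38, averaged 2.36 and 1.80 CPM in leaf, against 0.551 and 0.807 CPM in root. Without leaf replicate 3, root replicate 2 or root replicate 3, 1 NAC locus was called higher in place of 2. With unscaled totals 0 were called higher and 5 lower, against 4987 higher and 14693 lower of the 31308 loci tested. The median log2 fold of the list was then -0.97, which is -0.02 relative to the shifted median of all loci.

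The 4 listed MYB loci were sparser still, summing to 4.17, 3.51 and 5.27 CPM in leaf, against 2.71, 2.56 and 3.02 CPM in root, and to 84.2 ± 17 CPM in xylem. Of these 4 loci, 2 were called higher in leaf and 2 were not called, against 26.3% higher and 25.0% lower of all loci, with a median log2 fold of 1.11. One of the higher members had 46 counts over the 3 leaf libraries, against 1 count over the 3 root libraries, and the other 47 counts against 9. With unscaled totals 1 was called higher and 1 lower, against 4987 higher and 14693 lower of the 31308 loci tested. The order of the sums then turned, to 3.02 ± 0.78 CPM in leaf against 3.74 ± 0.20 CPM in root. The median log2 fold of the list was 0.20 with unscaled totals, which is 1.14 relative to the shifted median of all loci. In a fit of the 6 libraries alone 1 of the 4 loci passed the filter and it was not called.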

How the data were processed

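The authors deposited 1 table of raw counts, whole numbers per locus with no normalization. TopHat is named in the submitters' processing notes with no version; the sources used here do not give the counting tool, strand setting, genome build or annotation. Columns were matched to samples by title. The annotation table (assembly P.trichocarpa_v4.1) matched 0 identifiers, so the lists by product name could not be applied and checks of length and GC content were void.

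Tools were edgeR 4.0.16, DESeq2 1.42.0 and limma 3.58.1, run in R 4.3.3. Low counts were removed with filterByExpr, libraries scaled by TMM, and the 15 tissue libraries fitted together, without a replicate block, by quasi-likelihood (biological coefficient of variation 27.5%). Standard errors were obtained as the size of the log2 fold over the root of its F statistic, and 44 loci had none. Log2 CPM used a prior count of 2. Plots used matplotlib 3.10.9 under Python 3.11.15. The fit was also run on simulated counts with few loci changed, in balanced directions. That does not test the scaling where about every second locus differs.

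Depth is 5689642 to 30917688 counts per library; bounds at 3 counts cover counting error only. Chi-square per degree of freedom between replicates was 4.77 to 37.0.

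The members and lists were chosen with earlier results of these data known. The rule named called members of each list, the largest changes with a product name and the most abundant loci; with no annotation its fallback, 2 loci each way, was used. The list of xylan synthesis was not used here. Alternatives were other scalings, no filter, 6 libraries alone, DESeq2, limma voom, a replicate block, a stricter fold, single libraries left out and shared-count stretches left out.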

Additional observations from a re-analysis of the deposited data

How the results depend on the processing

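The direction of no named locus and no call shared with an alternative turned under any alternative run. A shared call was at least 2-fold in both runs, so turning it would take a shift of at least 4-fold. The shift with unscaled totals, to a median log2 fold of -0.95, was smaller, so other scalings could hardly turn a shared call. With unscaled totals 79.8% of the calls were kept. Counts of loci higher and lower in leaf were 8034 and 8035 with DESeq2's size-factor method in edgeR, 8596 and 8635 without the filter, 7779 and 7569 with the 6 libraries alone, 8027 and 7850 in DESeq2 and 8322 and 7769 in limma voom. With an at least 4-fold difference 9865 loci were called. Leaving out 1 library at a time gave 7734 to 8115 higher and 7571 to 8151 lower, and 1 to 2 NAC loci higher. With unscaled totals 4987 loci were higher and 14693 lower; leaf-high loci with a leaf-high neighbour numbered 1808 and root-high loci with a root-high neighbour 9160 (3699 and 3459 with scaling). Shoot tip was then nearer leaf for 3275 leaf-high loci and nearer root for 3865 root-high loci. Under the same scaling, 18 monolignol loci were lower (median log2 fold -1.95), 5 secondary wall (-1.15) and 7 primary wall cellulose synthase loci were lower (-1.28), 0 NAC loci were higher and 5 lower (-0.97), and 1 MYB locus was higher and 1 lower (0.20). In the 6-library fit 0 MYB loci were higher, with a log2 fold of -0.46 for the 1 that passed the filter. Deviations from the tissue means correlated at 0.046, 0.0058 and 0.073 between leaf and root libraries of equal replicate number. Unequal numbers were not compared, so a shared origin of leaf and root replicates was not tested. With the replicate block 8233 loci were higher and 7887 lower. Sparse loci are limited by the shallower root libraries.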
